A study of Homo sapiens with 6 samples.

Results

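The 10 genes described here encode the pore-forming alpha-1 subunits of human voltage-gated calcium channels, and they are all the genes of that family, CACNA1A to CACNA1I and CACNA1S. They were taken by name from the 58051 Ensembl genes counted in each library. The cells were A172, a long-established line from a human glioblastoma. Stable derivatives of it carried a lentiviral construct for RBFOX1, an RNA-binding protein of neurons and muscle, or for GFP as the control, and 3 libraries of each were sequenced after rRNA depletion. All libraries therefore came from transduced cells of 1 line, and no untransduced cells were compared here. The study restored RBFOX1 to ask about its part in mRNA stability in glioblastoma cells. It also reported that calcium signaling genes, taken as a set, were upregulated in the RBFOX1 cells, and that set was not tested here. Stability was not computed here, and the levels of the channel genes in the control cells and their differences in the RBFOX1 cells are described instead.

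A voltage-gated calcium channel opens when the membrane is depolarized and lets calcium into the cell. The alpha-1 subunit forms the pore and carries the voltage sensor, and it decides the type of current. The Cav1 genes (CACNA1S, CACNA1C, CACNA1D and CACNA1F) give the long-lasting L-type current that serves muscle contraction, hormone release and calcium-dependent transcription. The Cav2 genes (CACNA1A, CACNA1B and CACNA1E) give the P/Q-, N- and R-type currents that drive transmitter release at synapses. The Cav3 genes (CACNA1G, CACNA1H and CACNA1I) give the T-type current, which opens at weak depolarization and serves pacemaking. Beta and alpha-2-delta subunits bring Cav1 and Cav2 channels to the membrane. RBFOX proteins bind TGCATG in RNA (written here in DNA letters), act on alternative splicing when bound in introns, and act on mRNA stability when bound in 3′ UTRs. The counts were made per gene, so splice forms were not told apart.

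RBFOX1 itself had 4, 0 and 1 counts in GFP replicates 1, 2 and 3 and 10276, 16467 and 21451 in the RBFOX1 replicates. It was thus high only in the libraries labelled RBFOX1. GFP is not a human gene and was not counted, so its presence was not checked. Counts on genes summed to between 7433414 and 23249221 per library, and 3 counts were worth between 1.82 and 5.44 normalized counts, the unit in which libraries of unequal depth are compared here. RBFOX1 and GFP cells were compared by the quasi-likelihood test of edgeR on the 20536 genes that reached 10 counts in all. The threshold was an adjusted p (Benjamini-Hochberg over all these genes) under 0.05. The change was broad: 46.7% of all genes tested passed, 23.7% higher and 22.9% lower in the RBFOX1 cells, and the groups did not overlap in 53.4% (26.9% higher). The median log2 fold change over all genes tested was 0.0051. Among the 8524 genes whose normalized counts averaged under 50, the range that holds most of the channel genes, 14.2% were called higher and the median log2 fold change was 0.07. GFP replicate 1, the deepest library, stood apart from the other GFP libraries: their counts differed by a chi-square of 8.90 and 9.07 per degree of freedom, against 1.66 between replicates 2 and 3. Among the RBFOX1 libraries it was 1.98 to 3.01. The chi-square was taken on raw counts and grows with depth, so pairs of unequal depth are not on the same scale. The study describes biological replicates. The p-values measure the spread between these libraries of stable lines, and in bulk RNA fewer cells with a transcript and less transcript per cell cannot be told apart.

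In the GFP cells the family was read mostly from CACNA1H, with smaller counts for CACNA1A and CACNA1C. In the RBFOX1 cells CACNA1C, CACNA1G and CACNA1H rose, by 3.92-, 8.93- and 1.86-fold, and CACNA1A did not pass the test. CACNA1D and CACNA1E passed as well, but from 1 count each in all GFP libraries together. CACNA1B, CACNA1F, CACNA1I and CACNA1S stayed under the 10 counts needed for a test. The 10 genes together had 221, 136 and 168 counts in the GFP libraries and 215, 303 and 393 in the RBFOX1 libraries. As CPM, counts scaled to the library total, this was 9.51, 11.2 and 12.5 against 28.9, 24.4 and 26.3, with no overlap.

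**Figure D1:**
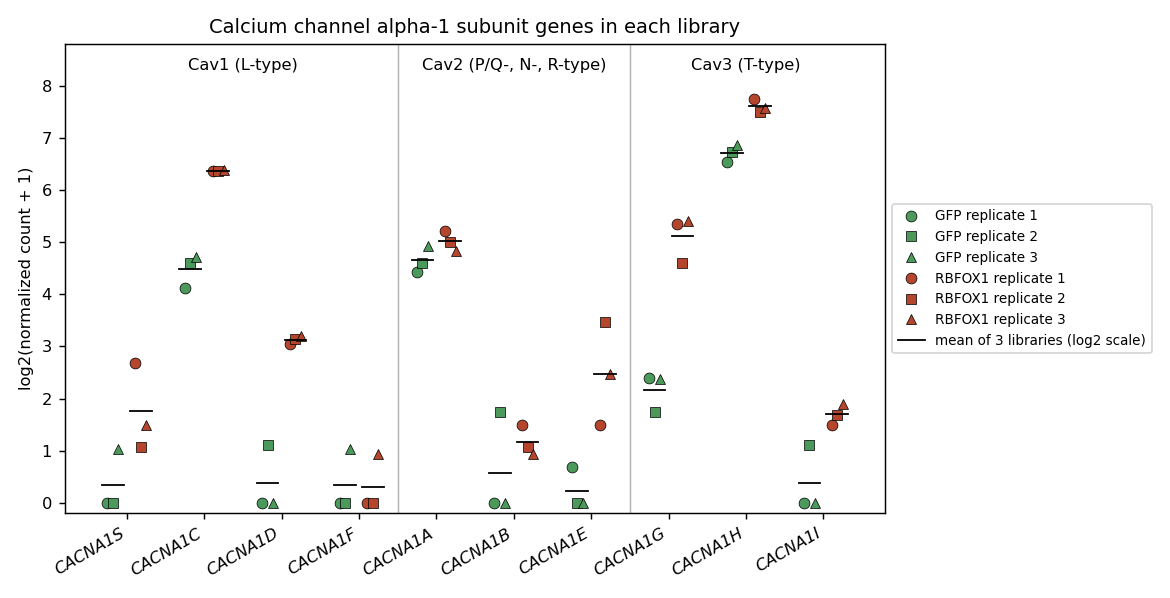
Each point is 1 library and each panel column 1 alpha-1 subunit gene, on a log2 axis of the normalized count plus 1, with GFP in green, RBFOX1 in red and a bar at the mean of 3 libraries. CACNA1C, CACNA1G and CACNA1H lie apart between the groups, CACNA1A overlaps, and CACNA1B, CACNA1F, CACNA1I and CACNA1S lie at 3 counts or fewer in every library.

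Sequences around the TGCATG matches in the 3′ UTRs of CACNA1C, CACNA1H and CACNA1A are shown first, because RBFOX1 was the protein added. These 3 genes had enough counts to be compared and hold a match. CACNA1G had enough counts as well, but its 3′ UTR holds no match and no line is given for it. Each line gives 30 bases of the reference genome (GRCh38) on the strand of the gene, 5′ to 3′, with the motif in capitals. The matches lie in the 3′ UTR of the canonical GENCODE transcript of each gene, at the distance given from the stop codon.
CACNA1C, 1698 nt, chr12:2692885-2692914, plus strand: tgtatattttgcTGCATGtaaagtaaatca
CACNA1C, 6048 nt, chr12:2697235-2697264, plus strand: tcctggccagaaTGCATGctgttcccccaa
CACNA1H, 78 nt, chr16:1221060-1221089, plus strand: caggcagaacccTGCATGgaccctgacttg
CACNA1A, 824 nt, chr19:13206472-13206501, minus strand: actgtgaattatTGCATGacattcaaaaag

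CACNA1C (ENSG00000151067, chr12:1970772-2697950, plus strand) encodes Cav1.2, the main L-type channel of heart, smooth muscle and brain. Its counts were 27, 20 and 24 in the GFP libraries and 45, 73 and 90 in the RBFOX1 libraries. Normalized, the GFP libraries lay at 16.4, 23.4 and 25.3 and the RBFOX1 libraries at 81.6, 81.0 and 82.2, so that the groups were far apart and the RBFOX1 libraries almost level. Counting error alone gives wider limits than that, 59.5 to 109 (95%, exact Poisson) for the 45 counts of RBFOX1 replicate 1. The mean rose from 21.7 ± 4.68 to 81.6 ± 0.567 (SD, n = 3 each). The log2 fold change was 1.97 (SE 0.189, 95% interval 1.57 to 2.37, edgeR adjusted p = 3.37e-08).

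CACNA1D (ENSG00000157388, chr3:53328963-53813733, plus strand) encodes Cav1.3, the L-type channel of endocrine cells, hair cells and the sinoatrial node. It had 0, 1 and 0 counts in the GFP libraries and 4, 7 and 9 in the RBFOX1 libraries. Every RBFOX1 library was above every GFP library, but the gene reached the 10 counts needed for a test only through the RBFOX1 libraries. Summed, 20 counts against 1 give a depth-adjusted ratio of 27.1, with a counting interval of 4.34 to 1124 (95%, exact). The fitted log2 fold change of 4.26 (SE 0.838, edgeR adjusted p = 0.000273) rests on that single GFP count, and it was 6.03 without GFP replicate 2, the library that holds it, and 3.52 without GFP replicate 1. The stricter filter on low counts of edgeR (filterByExpr) did not keep the gene. In the annotation 7.29% of its exonic bases lie opposite exons of CHDH, the mitochondrial choline dehydrogenase gene on the other strand, and the counts were made by strand.

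The other L-type genes were near 0. CACNA1S, the channel that triggers contraction in skeletal muscle, had 0, 0 and 1 counts in the GFP libraries and 3, 1 and 2 in the RBFOX1 libraries. Its summed counts of 1 and 6 give a depth-adjusted ratio of 8.13, with a counting interval of 0.987 to 374, which includes 1. CACNA1F, the channel of photoreceptor synapses, had 1 count in each group, a ratio of 1.36 with a counting interval of 0.0173 to 106. Differences in these genes were not detectable at this depth.

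CACNA1A (ENSG00000141837, chr19:13206442-13633025, minus strand) encodes Cav2.1, the P/Q-type channel of central synapses. It had 34, 20 and 28 counts in the GFP libraries and 20, 28 and 30 in the RBFOX1 libraries. Normalized, these were 20.6, 23.4 and 29.5 against 36.3, 31.1 and 27.4, and the highest GFP library lay above the lowest RBFOX1 library. The means were 24.5 ± 4.54 and 31.6 ± 4.46 (SD, n = 3 each). The log2 fold change was 0.36 (SE 0.233, 95% interval -0.13 to 0.85, edgeR adjusted p = 0.225), an interval that lies wholly below that of CACNA1C.

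CACNA1E (ENSG00000198216, chr1:181317690-181813262, plus strand) encodes Cav2.3, the R-type channel. It had 1, 0 and 0 counts in the GFP libraries and 1, 9 and 5 in the RBFOX1 libraries. GFP replicate 1 and RBFOX1 replicate 1 each held 1 count, and they differ after normalization, 0.607 and 1.81, through their depth only. As with CACNA1D, the gene was tested only because of its RBFOX1 libraries. The summed 15 counts against 1 give a ratio of 20.3, with a counting interval of 3.13 to 856 (95%, exact). The fitted log2 fold change was 3.86 (SE 0.967, edgeR adjusted p = 0.00252), 5.39 without GFP replicate 1, and the gene fell under 10 counts without RBFOX1 replicate 2. CACNA1B, the N-type channel of presynaptic terminals, had 0, 2 and 0 against 1, 1 and 1 counts. Its ratio was 2.03, with a counting interval of 0.233 to 24.3, and no difference was detectable.

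CACNA1H (ENSG00000196557, chr16:1153106-1221771, plus strand) encodes Cav3.2, a T-type channel of sensory neurons, smooth muscle and adrenal cells. It was the best-measured gene of the family, with 152, 90 and 110 counts in the GFP libraries and 118, 161 and 207 in the RBFOX1 libraries. Normalized, these were 92.3, 105 and 116 against 214, 179 and 189, so the lowest RBFOX1 library was well above the highest GFP library. The mean rose from 104 ± 11.8 to 194 ± 18.1 (SD, n = 3 each). The log2 fold change was 0.90 (SE 0.117, 95% interval 0.65 to 1.14, edgeR adjusted p = 2.09e-06).

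CACNA1G (ENSG00000006283, chr17:50560715-50627474, plus strand) encodes Cav3.1, the T-type channel of thalamic bursts and cardiac pacemaking. It had 7, 2 and 4 counts in the GFP libraries and 22, 21 and 45 in the RBFOX1 libraries. Normalized, these were 4.25, 2.34 and 4.21 against 39.9, 23.3 and 41.1. RBFOX1 replicate 2 was the lowest of its group and still above every GFP library. The mean rose from 3.60 ± 1.09 to 34.8 ± 9.94 (SD, n = 3 each). The log2 fold change was 3.16 (SE 0.363, 95% interval 2.40 to 3.92, edgeR adjusted p = 4.09e-07). CACNA1I, the T-type channel of the thalamic reticular nucleus, had 0, 1 and 0 against 1, 2 and 3 counts. Its ratio was 8.13, with a counting interval of 0.987 to 374, which includes 1.

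Of the 6 genes tested, 5 were called higher and 0 lower, and the same 5 did not overlap between the groups. Over all genes tested, 23.7% were called higher and 26.9% did not overlap in that direction. CACNA1E counts as not overlapping through depth only, since GFP replicate 1 and RBFOX1 replicate 1 each held 1 count. The median log2 fold change of the 6 was 2.56, against 0.0051 over all genes tested. CACNA1D and CACNA1E could be tested only through the group where they were high, so these counts and this median describe the genes and support nothing further. The calls of CACNA1C, CACNA1G and CACNA1H held in all 13 alternatives of scaling, filter, tool and omitted library, with log2 fold changes of 1.74 to 2.10, 2.96 to 3.40 and 0.79 to 0.98. Without GFP replicate 1 these were 1.74, 3.33 and 0.79. With a minimum absolute log2 fold change of 1, 1691 of the 20536 genes tested were called higher and 920 lower. At that threshold 4 alpha-1 genes were called higher, CACNA1D and CACNA1E among them, and CACNA1H, at 0.90, was lost. CACNA1A passed in 0 of 13, with log2 fold changes of 0.21 to 0.50 and adjusted p from 0.124 to 0.552.

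**Figure D2:**
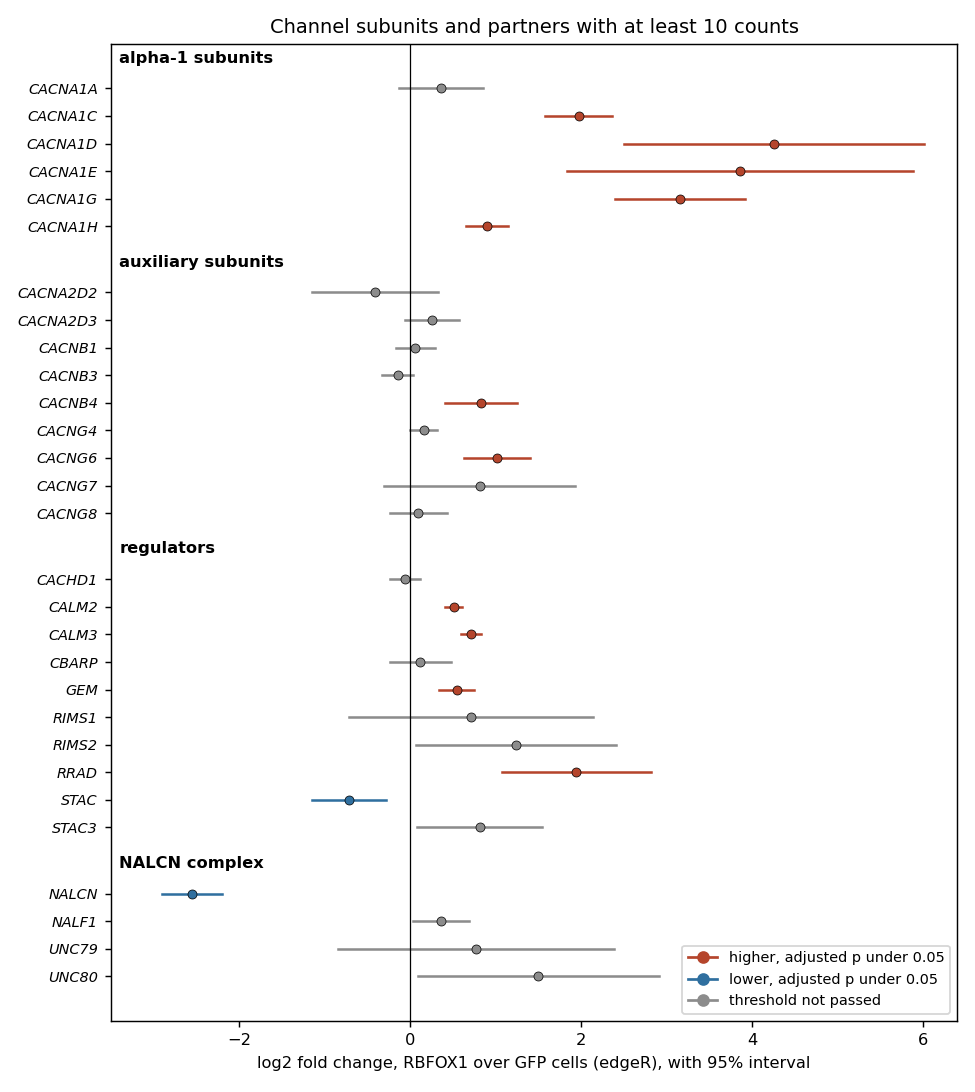
Points give edgeR's log2 fold change of RBFOX1 over GFP cells with 95% intervals for each alpha-1 subunit, auxiliary subunit, regulator and NALCN complex gene with at least 10 counts, in red where higher, blue where lower and grey where the threshold was not passed. CACNA1D and CACNA1E have the widest intervals among the alpha-1 genes, CACNA1A overlaps 0, and NALCN lies at -2.55.

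The counts of these genes were also set against each other. Within a library, where scaling between libraries plays no part, CACNA1C had 0.178, 0.222 and 0.218 counts per CACNA1H count in the GFP libraries and 0.381, 0.453 and 0.435 in the RBFOX1 libraries. CACNA1G had 0.0461, 0.0222 and 0.0364 per CACNA1H count in the GFP and 0.186, 0.130 and 0.217 in the RBFOX1 libraries. For CACNA1A the ratio was lower in every RBFOX1 library, at 0.169, 0.174 and 0.145 against 0.224, 0.222 and 0.255. The normalized mean of CACNA1A itself was not lower, at 24.5 in the GFP and 31.6 in the RBFOX1 cells, while that of CACNA1H rose from 104 to 194. The ratios did not overlap between the groups. They restate the fold changes above without scaling and are a description, since a two-sided exact permutation test of 3 libraries against 3 cannot go below p = 0.1.

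**Figure D3:**
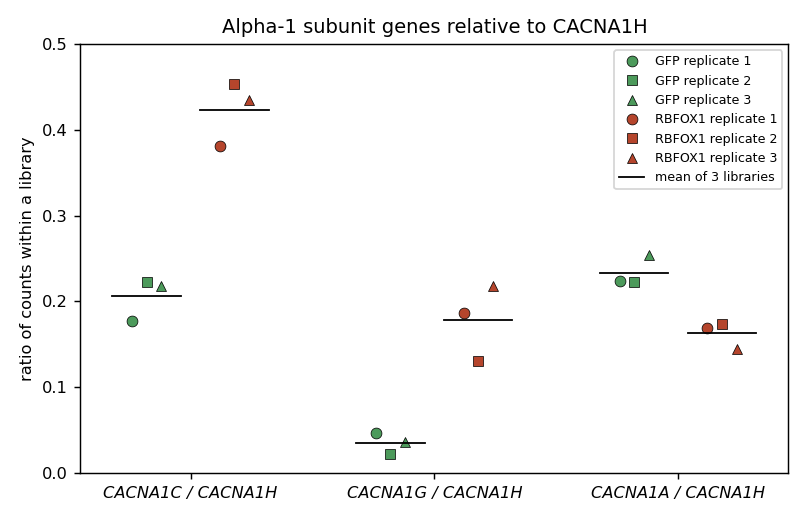
Each point gives, for 1 library, the counts of CACNA1C, CACNA1G or CACNA1A divided by those of CACNA1H, with GFP in green, RBFOX1 in red and a bar at the mean. The RBFOX1 libraries lie above the GFP libraries for CACNA1C and CACNA1G and below them for CACNA1A.

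To compare levels between genes, counts were divided by exon length and scaled to the same total in every library, as TPM. Over the union of all annotated exons, CACNA1H led in the GFP cells with 2.64 ± 0.435 TPM, ahead of CACNA1C (0.185 ± 0.0488), CACNA1A (0.124 ± 0.0290) and CACNA1G (0.0773 ± 0.0230, SD, n = 3 each). The libraries of CACNA1C and CACNA1A overlap on this scale, as do those of no other neighbours among these 4. In the RBFOX1 cells CACNA1H again led with 5.67 ± 0.574 TPM, followed by CACNA1G (0.871 ± 0.253), CACNA1C (0.804 ± 0.0102) and CACNA1A (0.184 ± 0.0270), with CACNA1G and CACNA1C overlapping. Each of the other 6 genes had a mean of at most 0.0174 TPM in the GFP cells and at most 0.102 TPM in the RBFOX1 cells, and their order cannot be told at 9 or fewer counts per library.

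The order behind CACNA1H depends on the length used. The union of exons of CACNA1A is 43150 nt over 59 annotated transcripts, while its canonical transcript has 8647 nt. Per canonical transcript, CACNA1A had 0.403 ± 0.0891 TPM in the GFP cells, above CACNA1C at 0.225 ± 0.0565 with no overlap. In the RBFOX1 cells the order became CACNA1H (3.75 ± 0.404), CACNA1C (0.943 ± 0.0167), CACNA1G (0.643 ± 0.189) and CACNA1A (0.581 ± 0.0882), of which only CACNA1G and CACNA1A overlapped. CACNA1H led on every length tried.

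Summed over the 10 genes, the level went from 3.08 ± 0.547 to 7.88 ± 0.832 TPM over union exons. The T-type genes made up 88.6% ± 1.74 of it in the GFP cells and 83.5% ± 1.10 in the RBFOX1 cells. The L-type genes made up 6.73% ± 1.45 and 12.9% ± 0.313, and the Cav2 genes 4.63% ± 0.712 and 3.59% ± 0.842 (SD, n = 3 each). These shares depend on the length used. Per longest transcript the T-type genes made up 74.1% ± 2.12 and 71.1% ± 1.88, the L-type genes 9.50% ± 1.59 and 18.4% ± 0.801, and the Cav2 genes 16.4% ± 0.551 and 10.5% ± 1.47. The L-type share was higher in every RBFOX1 library than in any GFP library on both lengths. The Cav2 share was lower in every RBFOX1 library per longest transcript, but overlapped between the groups over union exons.

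**Figure D4:**
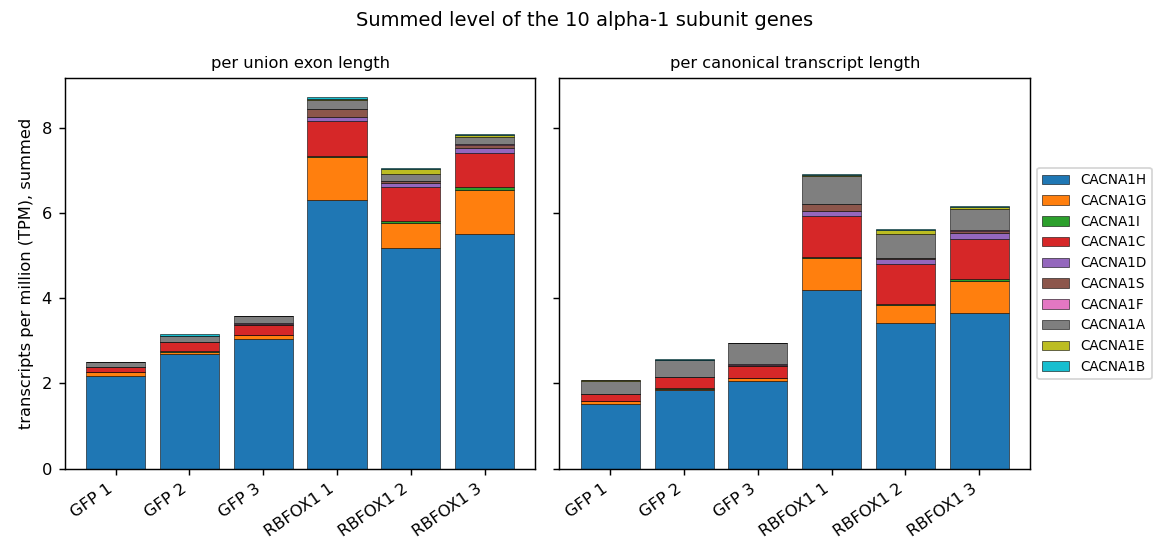
Bars stack the TPM of the 10 alpha-1 subunit genes in each library, per union exon length on the left and per canonical transcript length on the right. The RBFOX1 bars are all taller than the GFP bars, CACNA1H fills most of every bar, and the CACNA1C and CACNA1G segments are wider in the RBFOX1 libraries.

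For CACNA1C and CACNA1H, the 2 members whose normalized counts averaged 50 or more, the genes with the most similar profile over the 6 libraries were sought among 11068 protein-coding genes, by the root mean square difference of centred log2 CPM. Nearest to CACNA1C were PGRMC2 (0.0858), NACAD (0.0937) and CCN2 (0.0942), against a spread of CACNA1C around its own mean of 0.978. Nearest to CACNA1H were GFOD1 (0.0528), PRAG1 (0.0529) and ARNT2 (0.0654), against a spread of 0.463. With 2 groups of 3 libraries, a gene with a like fold change and little noise comes near by this measure.

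The auxiliary subunits were counted against the background of all genes tested, of which 46.7% passed, 23.7% higher and 22.9% lower. Of 16 auxiliary subunit genes, 9 could be tested, and 2 were higher and 0 lower. The median log2 fold change was 0.16. Their summed normalized counts ran from 1030 to 1151 in the GFP and from 1175 to 1205 in the RBFOX1 libraries. CACNB4, a beta subunit known from the cerebellum, had 50, 47 and 48 counts against 48, 70 and 75. Normalized, it rose from 45.3 ± 13.1 to 77.8 ± 9.29 with no overlap (SD, n = 3 each). Its log2 fold change was 0.83 (SE 0.199, edgeR adjusted p = 0.00174). CACNG6, a gamma subunit, had 60, 24 and 26 counts against 32, 65 and 66 and rose from 30.6 ± 5.04 to 63.5 ± 7.59 (log2 fold change 1.01, SE 0.184, edgeR adjusted p = 0.000118).

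The other beta and alpha-2-delta subunits did not pass. CACNB3 had a log2 fold change of -0.14 (edgeR adjusted p = 0.183) and CACNB1 one of 0.06 (edgeR adjusted p = 0.682). CACNA2D3, an alpha-2-delta subunit, had one of 0.26 (edgeR adjusted p = 0.187). CACNB2 and CACNG5 had 0 counts in all 6 libraries, and CACNA2D1, the alpha-2-delta subunit of muscle and the target of gabapentin, had 1 count in RBFOX1 replicate 3 and 0 elsewhere. The gamma genes CACNG4, CACNG7 and CACNG8, whose products also regulate AMPA receptors, did not pass the test either, apart from CACNG4 with filterByExpr (edgeR adjusted p = 0.0480).

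Against the same background of 46.7% passing, 23.7% higher and 22.9% lower, genes whose products regulate these channels were counted. Among 16 such genes, 10 could be tested, and 4 were higher and 1 lower. The median log2 fold change was 0.63. CALM2 and CALM3 encode calmodulin, the calcium sensor bound to Cav1 and Cav2 channels. CALM2 rose from 11588 ± 311 to 16546 ± 575 normalized counts and CALM3 from 957 ± 43.3 to 1570 ± 47.8 (SD, n = 3 each). The log2 fold changes were 0.51 and 0.72, with edgeR adjusted p of 1.99e-08 and 1.51e-09. Both encode the same protein, and whether reads shared between them touched these counts was not tested.

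GEM and RRAD encode small GTPases that hold back calcium channels through the beta subunit. GEM rose from 263 ± 36.2 to 387 ± 35.1 normalized counts (log2 fold change 0.55, SE 0.0977, edgeR adjusted p = 9.81e-05). RRAD had 56 counts in the RBFOX1 against 19 in the GFP libraries (log2 fold change 1.94, SE 0.416, edgeR adjusted p = 0.000625). STAC, an adaptor that slows inactivation of L-type channels, fell from 61.6 ± 15.5 to 40.5 ± 7.73 (log2 fold change -0.71, edgeR adjusted p = 0.00748). That call was lost with DESeq2 (adjusted p = 0.0730), without GFP replicate 1 (-0.42, edgeR adjusted p = 0.107) and without RBFOX1 replicate 3 (edgeR adjusted p = 0.0692).

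NALCN encodes the sodium leak channel, a relative of the alpha-1 subunits with a like build but little voltage dependence. It went the other way from the calcium channel genes. NALCN had 245, 147 and 146 counts in the GFP libraries and 18, 17 and 33 in the RBFOX1 libraries. Normalized, these were 149, 171.7 and 154 against 32.6, 18.9 and 30.1, so the groups were far apart. The log2 fold change was -2.55 (SE 0.168, edgeR adjusted p = 1.19e-10), or 5.85-fold lower. Its partners UNC79, UNC80 and NALF1 did not pass the test, with log2 fold changes of 0.77, 1.501 and 0.36 (edgeR adjusted p of 0.454, 0.0772 and 0.0653). UNC79 had only 7 counts in the GFP and 9 in the RBFOX1 libraries, and UNC80 had 9 and 19, so these 2 were poorly measured. UNC80 passed in 4 of 12 alternatives, NALF1 in 2 of 13 and UNC79 in 0 of 12.

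Marker genes of cells in which these channels are known were counted as well, against a background of 46.7% of all genes called, 23.7% higher and 22.9% lower. Of 10 neuronal markers 6 could be tested, 4 were higher (MAP2, STMN2, SYP and NEFL) and 1 lower (SYT1), and their summed normalized counts ran from 5253 to 5680 in the GFP and from 18185 to 20262 in the RBFOX1 libraries, mostly NEFL. DCX was at 0 in every library, and RBFOX3, SNAP25 and ELAVL4 were at 3 counts or fewer. All 5 testable genes of 10 striated muscle markers were higher (178 to 194 against 371 to 421), TNNT2 among them with 0, 0 and 0 against 14, 23 and 32 counts, but MYOD1 was at 0 and ACTA1, CKM and ACTN2 were at 3 counts or fewer. Both testable genes of 6 endocrine markers, CHGB and SCG2, were higher (35.8 to 40.9 against 155 to 218), with PCSK2 at 0. CHGA had 1 count in the GFP and 0 in the RBFOX1 libraries, INSM1 had 3 and 1, and PCSK1 had 1 and 6. STMN2, TNNT2, MYH7 and RYR1 had fewer than 10 counts in the GFP libraries together and were tested only through the RBFOX1 libraries, so their direction was partly fixed by the filter. Of 10 markers of glioblastoma lines 9 could be tested, 3 were higher (NES, SOX2 and PDGFRA) and 4 lower (VIM, CD44, SOX9 and OLIG2), while the astrocyte markers GFAP and S100B were at 4 counts or fewer in every library. The part of these shifts in the channel genes was not tested.

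Whether the canonical 3′ UTR of each gene holds TGCATG was read from the sequence of the canonical GENCODE transcript. The windows around the matches were then compared with the genome and were equal to it. Matches were found for 6 of the 10 genes, and 33.4% of all canonical 3′ UTRs searched hold at least 1. CACNA1C has 2 in a 3′ UTR of 6751 nt, and 86.1% of 3′ UTRs within 20% of that length hold at least 1. CACNA1H has 1 in 774 nt, a length at which 21.0% do, and CACNA1A has 1 in 871 nt, a length at which 23.7% do. CACNA1E has 5 in 9250 nt (92.4%), CACNA1B 4 in 2620 nt (55.9%) and CACNA1S 1 in 319 nt (8.61%). CACNA1D, CACNA1F, CACNA1G and CACNA1I have none, at lengths at which 52.0%, 1.33%, 19.5% and 62.7% hold at least 1. All these shares are for at least 1 match and give no background for higher numbers of matches. CACNA1C, CACNA1G and CACNA1H rose from 71, 13 and 352 counts in all GFP libraries together. Of these, CACNA1C and CACNA1H hold a match and CACNA1G does not. CACNA1A, which did not pass the test, holds 1. A match describes letters in these windows and not binding, and other motif forms and introns were not searched.

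**Figure D5:**
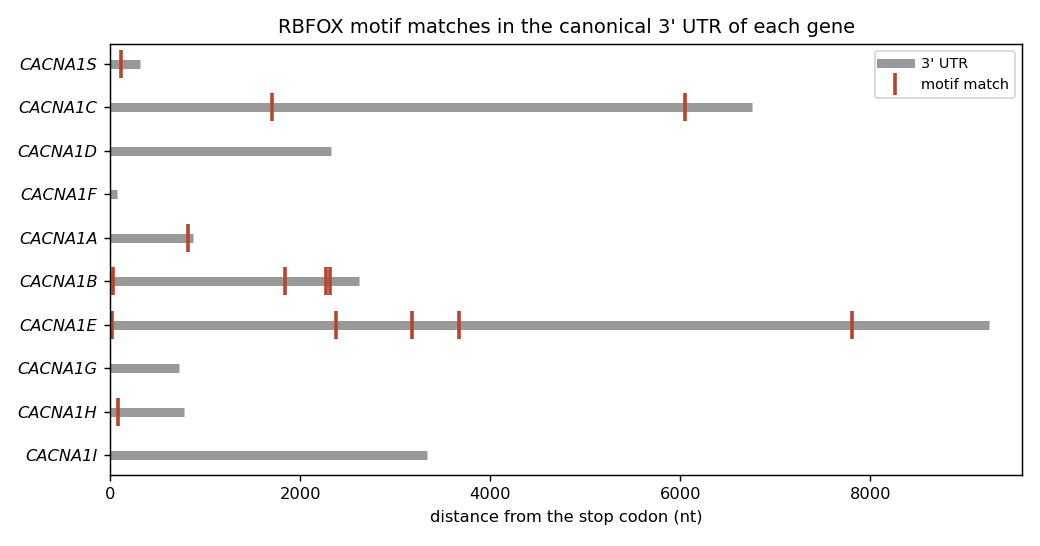
Grey bars give the length of the canonical 3′ UTR of each alpha-1 subunit gene in nt from the stop codon, and red ticks mark TGCATG on the strand of the gene. The 3′ UTRs of CACNA1C and CACNA1E are the longest and hold 2 and 5 matches, and those of CACNA1D, CACNA1F, CACNA1G and CACNA1I hold none.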

How the data were processed

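RNA of 3 GFP and 3 RBFOX1 libraries of A172 cells was measured. Per the labels and the methods of the study, the authors aligned paired reads to GRCh38 with HISAT2, counted them by strand with HTSeq-count on Ensembl genes, and deposited the raw counts of each gene. Their table of a DESeq2 comparison (mean, fold change and p-values) was not used. Reads on no gene (6.61 to 8.74%) or more than 1 gene (6.89 to 9.35%), of low mapping quality (16.8 to 27.0%) or not aligned (4.64 to 7.46%) stayed out of totals.

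Counts were normalized with TMM and tested with edgeR 4.0.16 (R 4.3.3, two-sided, condition only, Benjamini-Hochberg adjustment), on genes with at least 10 summed counts. A normalized count is the count scaled to an effective library size of 13877712. DESeq2 1.42.0, limma-voom (limma 3.58.1), other scalings and filters, a replicate block, a minimum fold and each library left out were the alternatives, and TPM per canonical transcript was added after seeing the data. The fit was also run on simulated counts, in which only a small share of genes, all with more counts than CACNA1D and CACNA1E, were changed. That run therefore says nothing about genes with so few counts. Where an alpha-1 gene had 1 to 3 summed counts in a group, the ratio of summed counts is given with an exact conditional interval. This replaced the bound first intended. Such intervals cover counting error only.

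Symbols, coordinates and UTRs came from GENCODE 44 (98.1% of identifiers matched, holding 99.9% of counts). The members and gene lists were chosen with earlier results of these data known. Named by rule were the 10 members, RBFOX1, genes of the lists that passed and averaged 50 or more normalized counts, and the 3 nearest profiles. A further gene first planned for the regulator list was taken out of it and is not reported here. CACNG6, RRAD and the other genes named were chosen after their values were seen.

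Replicate numbers came from the labels. Same-numbered libraries deviated from their group means with correlations of -0.172, 0.0348 and -0.0568 over 12012 genes, so they were not treated as pairs.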

Additional observations from a re-analysis of the deposited data

How the results depend on the processing

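The limit here is depth, since 4 of the 10 genes could not be tested and CACNA1D and CACNA1E rest on 1 GFP count each. With filterByExpr 3 alpha-1 genes were called higher, because CACNA1D and CACNA1E were not kept. That filter called 4646 of 15273 genes higher. No alternative called any of the 10 lower. Without RBFOX1 replicate 2, 4 alpha-1 genes were called higher, where 4301 of all 19907 genes tested were. With a minimum absolute log2 fold change of 1, 1691 genes of all tested were higher and 920 lower, with 4 alpha-1 genes higher (CACNA1H was lost), 1 auxiliary subunit higher, and 1 regulator higher and 0 lower. DESeq2 called 0 regulators lower. With no filter on low counts and with filterByExpr, 1 gene of the NALCN complex was called higher. Leaving out each library in turn gave 0 to 1 regulators lower and 0 to 1 genes of the NALCN complex higher, and log2 fold changes of -0.0087 to 0.16 for CACNB1 and -0.067 to 0.22 for CACNG8, neither of them called. RRAD had a log2 fold change of 1.39 without GFP replicate 1. The cause of these shifts was not tested. With the replicate number as a block, 4588 genes were higher and 4458 lower, the 5 alpha-1 genes were called, and 1 gene of the NALCN complex, UNC80, was higher (log2 fold change 1.79, edgeR adjusted p = 0.0357). GFP libraries did not correlate best with their own number. The longest and canonical transcript lengths moved the TPM of CACNA1A, CACNA1C, CACNA1D, CACNA1H and, per canonical transcript, CACNA1I by more than the spread between replicates in 1 or both groups.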

Other observations

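The loci of CACNA1C and CACNA1G hold annotated long non-coding RNA genes, among them CACNA1C-IT1, CACNA1C-IT3, CACNA1C-AS1, CACNA1C-AS2, CACNA1C-AS3, CACNA1C-AS4 and CACNA1G-AS1. CACNA1C-IT1 had 1 count in GFP replicate 1 and CACNA1C-IT3 had 1 in GFP replicate 2. The other 5 had 0 counts in every library. No difference in these transcripts was detectable at this depth, while CACNA1C and CACNA1G rose in the RBFOX1 libraries.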
